A study of Homo sapiens with 6 samples.

Results

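The genes described here encode the EGF-family growth factors, the ERBB receptors they bind and inhibitors of these receptors, followed in SW480 cells treated with the compound MPM-1. The set was fixed by name, with earlier results of these data known. It holds 10 genes: the ligands AREG, EREG, HBEGF, TGFA and BTC, the receptors EGFR, ERBB2 and ERBB3, and the receptor inhibitors ERRFI1 and LRIG1. Of these, 9 were among the 12982 genes of the deposited table, and LRIG1 was not analysed here. SW480 is an established line from a human colorectal adenocarcinoma. One group of 3 libraries came from cells given DMSO, the solvent, and the other group of 3 libraries from cells given MPM-1, a mitochondrial fluorescent probe with the label WT4 in the sample descriptions. Both groups were kept for 24 h, were of the genotype labelled WT, and grew in DMEM with serum and glutamine. The dose used for sequencing is not given in the sources used here, and a single cell line was sequenced. Nothing in the labels says that libraries of a group came from separate cultures, so the p-values below measure only the spread between these libraries, which may be technical.

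EGF-family ligands are made as membrane-anchored precursors, and metalloproteases such as ADAM17 and ADAM10 cut them free so that they can act on the same cell or on neighbours. Ligand binding makes the receptors pair, and the paired kinases start the RAS-ERK cascade and the PI3K-Akt pathway. AREG and TGFA bind EGFR, whereas EREG, HBEGF and BTC bind both EGFR and ERBB4. ERBB2 has no known ligand and serves as a partner for the others, while ERBB3 binds neuregulins, has little kinase activity of its own and couples strongly to PI3K. In the gut epithelium these ligands drive renewal and repair, and AREG and EREG are well-known markers of EGFR signaling in colorectal cancer. ERRFI1, also called MIG6, binds the EGFR kinase and blocks it, and is itself switched on by growth factor signaling.

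Total counts per library ranged from 32095456 to 40269820 for DMSO and from 31733667 to 35403841 for MPM-1. At this depth a count of 0 would allow up to 3 counts, which is 0.0695 to 0.0985 CPM (counts divided by the TMM-scaled library size) depending on the library, and this limit covers counting error only. Every gene of the family lay above that limit in every library. Levels are given as CPM for comparisons between libraries and as the deposited FPKM (fragments set against both transcript length and library size) for comparisons between genes. A gene is said to have risen or fallen where edgeR's quasi-likelihood test gave a Benjamini-Hochberg adjusted p under 0.05 over all 12982 genes. By this rule 27.7% of all genes rose, 28.8% fell and 56.5% changed in either direction, so a call by itself was common in these libraries. Scaling by library size alone moved the median of all genes from -0.026 to -0.176 on the log2 scale, and the rising and falling genes then numbered 2589 and 4871 instead of 3596 and 3740. In bulk RNA, fewer cells of a type and less RNA per cell cannot be told apart.

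The colon epithelial origin of the cells was checked on 15 markers, of which 14 had a row. EPCAM stood at 638 to 733 CPM with DMSO and 638 to 703 CPM with MPM-1, and the epithelial keratins KRT8, KRT18 and KRT19 lay between 1500 and 5940 CPM over the 6 libraries. The summed FPKM of the 14 markers was 5480 to 6420 with DMSO and 7590 to 8090 with MPM-1. Most of it was KRT8, KRT18 and KRT19, with means of 2120, 1230 and 1210 FPKM and then 2520, 2050 and 2010. Within the list 6 markers rose, among them ELF3 by 1.58, KRT18 by 0.89 and KRT19 by 0.89 on the log2 scale, and 5 fell, among them the intestinal transcription factors CDX2 (-2.20) and CDX1 (-0.98) and the differentiation keratin KRT20 (-2.03). The share of these markers called was 78.6%, beside 56.5% of all genes. Of 14 markers of immune, stromal and endothelial cells, 10 had no row, including PTPRC, CD3E, PECAM1 and DCN. CD68, a lysosomal protein abundant in macrophages, rose by 1.08, whereas COL1A1 (-2.07) and CD14 (-1.34) fell and PDGFRB was not called. The summed FPKM of these 4 genes was 37.8 to 51.2 with DMSO and 71.3 to 75.0 with MPM-1. Nearly all of this sum was CD68, at means of 37.2 and 71.2 FPKM, so it does not stand for the list. The part of these marker changes in the results on the family was not tested.

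Of the ligands, 3 have neighbouring loci on chromosome 4 (GRCh38, GENCODE release 29). EREG lies at chr4:74365143-74388751 on the plus strand and AREG at chr4:74445134-74455009 on the same strand, with 56382 bases between them. BTC lies at chr4:74744759-74794686 on the minus strand, a further 289749 bases from AREG. HBEGF is at chr5:140332843-140346631 on the minus strand and TGFA at chr2:70447280-70554193 on the minus strand. The receptors are at chr7:55019021-55211628 on the plus strand for EGFR, chr17:39687914-39730426 on the plus strand for ERBB2 and chr12:56076799-56103505 on the plus strand for ERBB3. ERRFI1 is at chr1:8004404-8026308 on the minus strand. ERBB2 overlaps PGAP3 and MIEN1 on the other strand, and EGFR overlaps EGFR-AS1. Because the strand setting of the counting is not given in the sources used here, reads of such pairs may not be separated.

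The promoters of AREG and EREG, the neighbouring pair with the highest ligand levels, and of HBEGF, the ligand with the largest change, are shown because these genes carry the main results. Each line gives the 250 bases before the start of the gene from RefSeq on GRCh38.p14, 5′ to 3′ on the strand of the gene. The RefSeq starts differ from those of the GENCODE loci above, so each window runs some bases into its locus, that of HBEGF furthest. Capitals mark matches on either strand to the TATA box (searched as TATAAA), the cAMP response element or CRE (TGACGTCA) or the GC box (GGGCGG). The windows are chr4:74444886-74445135 on the plus strand for AREG, chr4:74364895-74365144 on the plus strand for EREG and chr5:140346604-140346853 on the minus strand for HBEGF, where the last pair of GC boxes overlap.
AREG: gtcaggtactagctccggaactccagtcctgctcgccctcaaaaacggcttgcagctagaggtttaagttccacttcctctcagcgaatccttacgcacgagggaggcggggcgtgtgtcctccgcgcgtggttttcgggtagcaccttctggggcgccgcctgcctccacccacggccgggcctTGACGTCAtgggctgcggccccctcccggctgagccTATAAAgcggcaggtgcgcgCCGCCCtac
EREG: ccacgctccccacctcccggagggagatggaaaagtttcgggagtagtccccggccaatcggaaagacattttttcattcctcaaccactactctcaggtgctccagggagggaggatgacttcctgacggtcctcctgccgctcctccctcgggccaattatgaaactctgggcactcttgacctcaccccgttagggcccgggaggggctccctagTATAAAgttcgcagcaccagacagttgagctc
HBEGF: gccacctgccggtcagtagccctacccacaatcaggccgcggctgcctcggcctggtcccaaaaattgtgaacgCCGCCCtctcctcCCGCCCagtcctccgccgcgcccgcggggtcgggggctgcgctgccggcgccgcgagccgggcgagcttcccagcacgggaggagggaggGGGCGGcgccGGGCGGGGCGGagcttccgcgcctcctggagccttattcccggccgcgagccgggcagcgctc

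AREG held a TATA box 29 bases before the start and a full CRE 65 bases before it, and EREG held a TATA box 32 bases before the start. HBEGF held 5 GC boxes and no TATAAA, and its GC content was 76.4%, against 65.2% for AREG, 58.0% for EREG and a median of 58.0% over all 34788 promoters. A promoter was found for 8 of the 9 genes, with alternative starts for some, and ERBB3 is named only. Of these 8, a CRE was present in 1 (AREG), a TATA box in 3 (AREG, EREG and an alternative start of EGFR), a GC box in 5 (AREG, HBEGF, TGFA, EGFR and ERRFI1) and the AP-1 motif TGANTCA in 2 (ERBB2 and the alternative start of EGFR). Over the 34788 RefSeq promoter windows, each counted singly, the shares were 1.64% for the CRE, 10.8% for the TATA box, 42.6% for the GC box and 6.59% for the AP-1 motif. These windows are not limited to genes of the deposited table. The 8 genes were counted as matching if any of their starts matched, so the units differ. The core of the antioxidant response element, TGACNNNGC, had no match in the 8 genes and matched 10.9% of all promoters. These matches describe letters only.

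All 9 genes changed with MPM-1, 7 upward and 2 downward, where 27.7% of all genes rose and 28.8% fell. The 5 ligands, EGFR and ERRFI1 rose, while ERBB2 and ERBB3 fell. The libraries of the treatments did not overlap in CPM for any of the 9 genes, which also held for 64.3% of all genes. The median log2 fold change over the 9 genes was 0.93, beside -0.026 over all genes. Under the stricter rule, which asks for an adjusted p under 0.01 together with a log2 change of 1 or more either way, 4 genes were higher (AREG, HBEGF, BTC and ERRFI1) and 0 lower, where 5.58% of all genes were higher and 8.75% lower. Every gene of the family was called in the same direction by DESeq2 as well. Because the set was chosen with earlier results of these data known, its shares and median beside all genes are a description. EGF and NRG4, ERBB ligands outside the set, fell (log2 fold changes of -0.81 and -1.67).

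**Figure D1:**
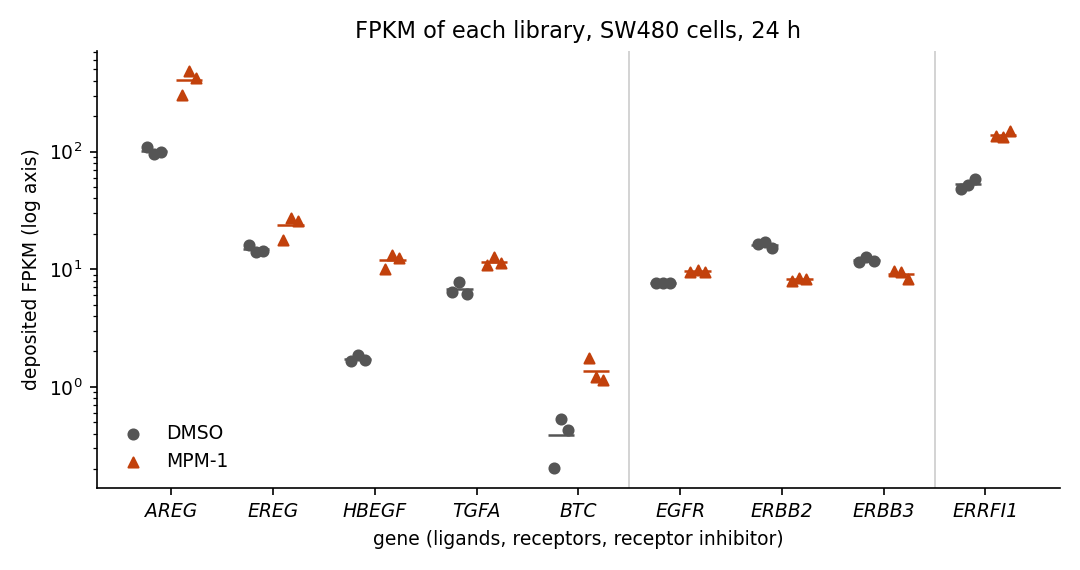
Deposited FPKM of the 9 genes in each library, on a log axis, with points for the 3 DMSO and 3 MPM-1 libraries and a line at each group mean. AREG and ERRFI1 lie highest in both groups, and the points of the 2 treatments do not overlap for any gene.

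AREG, or amphiregulin, was the most abundant transcript of the family. It stood at 136, 114 and 120 CPM in the DMSO libraries and at 421, 647 and 568 CPM in the MPM-1 libraries. All MPM-1 libraries lay well above the DMSO libraries, with replicate 1 the lowest of the 3 treated ones. The mean went from 123 ± 11.6 to 546 ± 115 CPM (SD, n = 3), with a log2 fold change of 2.14 (SE 0.15) or 4.42-fold, with an edgeR adjusted p of 4.32e-06.

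EREG, or epiregulin, encoded by the neighbouring gene, rose less. Its DMSO libraries held 74.3, 62.3 and 64.1 CPM and its MPM-1 libraries 91.1, 135 and 130 CPM. The lowest treated library was again replicate 1, and it was nearer to the DMSO libraries than to the other two. The log2 fold change was 0.83 (SE 0.14, adjusted p = 0.000914, edgeR), which is 1.78-fold.

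HBEGF, the heparin-binding ligand that is also the cell-surface receptor for diphtheria toxin, had the largest change of the family. Its deposited counts were 132, 187 and 156 with DMSO and 809, 1033 and 1085 with MPM-1. Scaled, this was 4.00, 4.33 and 3.92 CPM against 26.6, 33.6 and 32.3 CPM. The replicates were close to each other in both groups, at 4.08 ± 0.218 and 30.8 ± 3.75 CPM. The log2 fold change was 2.91 (SE 0.14), or 7.54-fold, with an edgeR adjusted p of 5.94e-07.

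TGFA, the ligand first known from transformed cells, stood at 27.5, 32.5 and 25.8 CPM with DMSO and at 51.9, 58.1 and 53.5 CPM with MPM-1. The treated libraries were tightly grouped, and the gene rose 1.90-fold, a log2 fold change of 0.93 (SE 0.10) with an edgeR adjusted p of 6.67e-05. An RNA within an intron of TGFA, TGFA-IT1, overlaps it on the same strand and has no row in the table.

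BTC, or betacellulin, was the rarest transcript among the genes of the set and the least precisely measured of them. Its counts were 19, 63 and 47 with DMSO and 167, 112 and 117 with MPM-1, or 0.576, 1.46 and 1.18 CPM against 5.48, 3.64 and 3.48 CPM. Here MPM-1 replicate 1 was the highest treated library, unlike for AREG, EREG, HBEGF and TGFA, where it was the lowest. The log2 fold change was 1.95 (SE 0.36, adjusted p = 0.00143, edgeR), and it ranged from 1.67 to 2.24 when each library was left out in turn.

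The receptors moved in different directions. EGFR was at 72.5, 71.5 and 72.0 CPM with DMSO and at 99.2, 99.6 and 96.7 CPM with MPM-1, so that the replicates of each group nearly coincided. This was the smallest change of the family, a log2 fold change of 0.45 (SE 0.07) or 1.37-fold, with an edgeR adjusted p of 0.000387.

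ERBB2, the partner receptor also called HER2, went from 74.0, 74.3 and 66.3 CPM to 40.1, 40.9 and 42.1 CPM. It fell 1.74-fold, a log2 fold change of -0.80 (SE 0.08) with an edgeR adjusted p of 3.09e-05. ERBB3, the kinase-poor neuregulin receptor, went from 59.5, 62.2 and 61.8 CPM to 35.2, 36.6 and 35.1 CPM. Its fall was of a similar size, with a log2 fold change of -0.78 (SE 0.07) or 1.72-fold and an edgeR adjusted p of 2.54e-05. No library of one treatment reached the range of the other for either gene.

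ERRFI1, the intracellular inhibitor of EGFR, rose with the ligands. It stood at 149, 154 and 172 CPM with DMSO and at 459, 432 and 500 CPM with MPM-1. The change was 2.93-fold, a log2 fold change of 1.55 (SE 0.09) with an edgeR adjusted p of 1.49e-06, and the groups were far apart relative to the spread within each. ERRFI1 overlaps the noncoding gene AL034417.4 on the other strand.

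**Figure D2:**
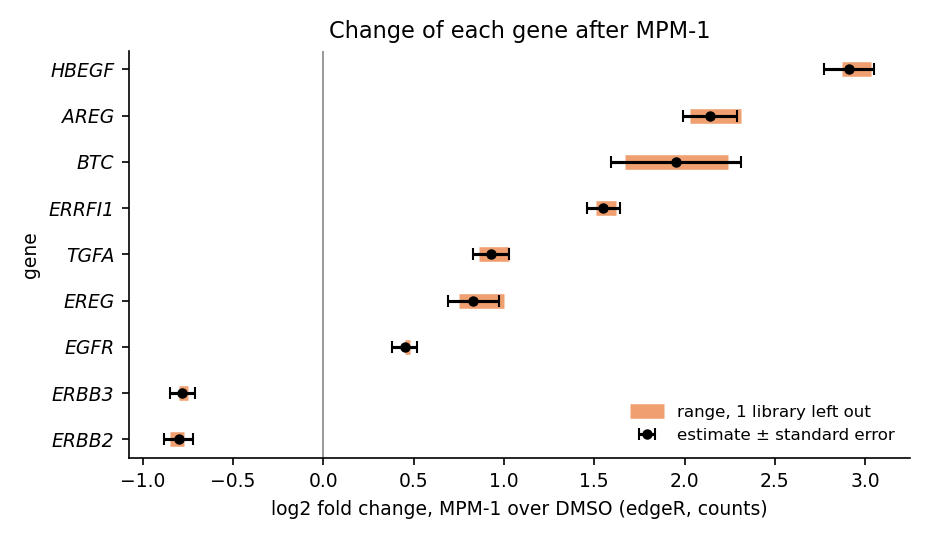
Log2 fold change of each gene, MPM-1 over DMSO, from edgeR on the counts, with bars of 1 standard error and a band for the range when each library was left out in turn. The 7 genes to the right of 0 run from EGFR at 0.45 to HBEGF at 2.91, and ERBB2 and ERBB3 lie to the left at -0.80 and -0.78.

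In FPKM, a unit per transcript length, the order of levels with DMSO was AREG at 102 ± 7.61, ERRFI1 at 52.8 ± 4.92, ERBB2 at 16.1 ± 0.896, EREG at 14.8 ± 1.13, ERBB3 at 12.0 ± 0.516, EGFR at 7.60 ± 0.0149, TGFA at 6.78 ± 0.879, HBEGF at 1.74 ± 0.11 and BTC at 0.387 ± 0.167 (SD, n = 3). The ranges of ERBB2 and EREG overlapped, as did those of EGFR and TGFA, so these neighbours did not differ beyond their spread. With MPM-1 the order became AREG at 405 ± 92.3, ERRFI1 at 139 ± 9.09, EREG at 23.7 ± 5.17, HBEGF at 11.9 ± 1.65, TGFA at 11.6 ± 0.917, EGFR at 9.58 ± 0.205, ERBB3 at 9.13 ± 0.776, ERBB2 at 8.22 ± 0.229 and BTC at 1.36 ± 0.331. HBEGF thus moved from place 8 to place 4, where its range overlapped that of TGFA, and ERBB2 moved from place 3 to place 8. The ranges of EGFR and ERBB3 overlapped with MPM-1, as did those of ERBB3 and ERBB2. When levels were instead computed as CPM per kilobase of all exons joined, 5 of 9 genes kept their place with DMSO and 5 of 9 with MPM-1. By that measure HBEGF moved from place 8 to place 5 and ERBB2 from place 4 to place 7, and ERBB3 was at place 8 with MPM-1. With DMSO, EREG then stood at a mean of 11.7 and ERBB2 at 6.93 CPM per kilobase.

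The 5 ligands together held 134, 119 and 123 FPKM in the DMSO libraries and 347, 543 and 472 FPKM in the MPM-1 libraries. EGF and NRG4, ligands outside the set, are left out of this pool. Their means were 1.82 and 0.462 FPKM with DMSO and 0.892 and 0.158 FPKM with MPM-1. AREG made up 81.1% ± 1.16 of this pool with DMSO and 89.2% ± 0.815 with MPM-1. The share of EREG went from 11.8% ± 0.163 to 5.21% ± 0.223 and that of TGFA from 5.45% ± 0.962 to 2.62% ± 0.441, although both transcripts rose. HBEGF went from 1.40% ± 0.164 to 2.65% ± 0.233, and BTC was at 0.316% ± 0.149 and 0.323% ± 0.157. No shares of a ligand overlapped between treatments except those of BTC.

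The 3 receptors together held 35.5, 37.1 and 34.5 FPKM with DMSO and 27.0, 27.8 and 26.0 FPKM with MPM-1. EGFR was 21.4%, 20.5% and 22.0% of the receptor sum with DMSO and 34.9%, 35.3% and 36.6% with MPM-1. The FPKM of ERBB3 went to 0.761 of its DMSO mean, whereas its counts gave 0.583 by edgeR. The receptor sum and the EGFR share carry this difference, which is described below. Per unit of receptor FPKM there were 3.78, 3.21 and 3.55 units of ligand FPKM with DMSO, and 12.8, 19.6 and 18.1 with MPM-1. Without AREG, the other 4 ligands summed to 24.3, 24.1 and 22.6 FPKM and then to 40.4, 54.4 and 50.7 FPKM. In sum, ligand FPKM was higher and receptor FPKM lower in each MPM-1 library than in each DMSO library, with or without the most abundant ligand. These sums were not tested and describe RNA, not protein.

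**Figure D3:**
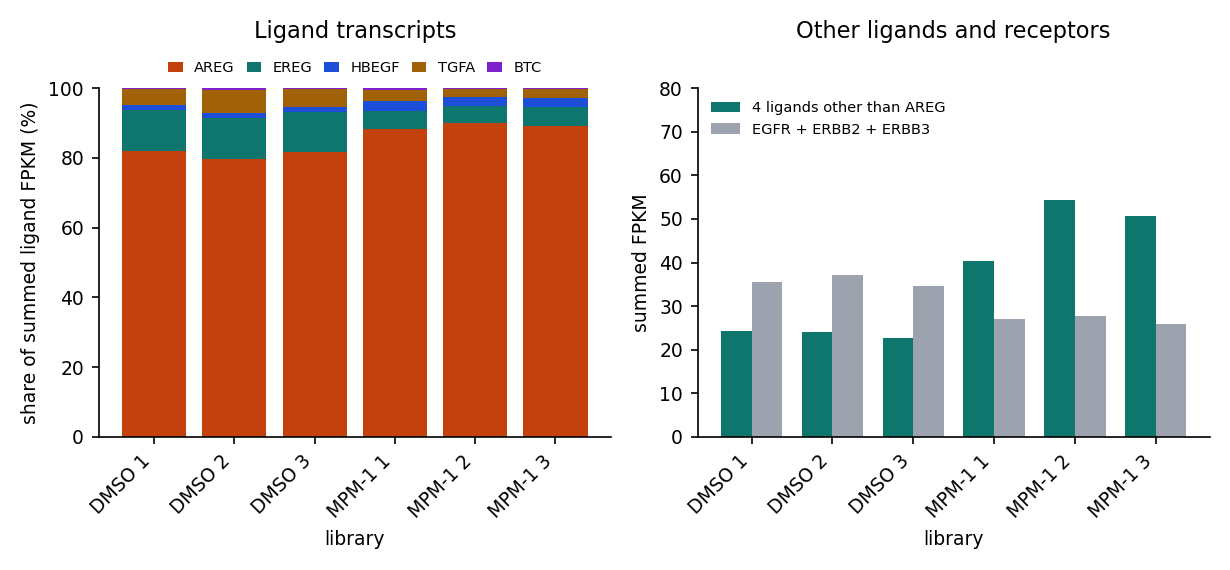
Left, the share in percent of each ligand of the set in their summed FPKM in each library, as stacked bars from 0 to 100. Right, summed FPKM per library of the 4 ligands other than AREG and of the 3 receptors, as bars from 0. The receptor sum exceeds the sum of the other ligands in each DMSO library, and the reverse holds in each MPM-1 library.

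The FPKM of ERBB3 did not follow its counts as closely as those of the other genes did. Its FPKM was 11.6, 12.6 and 11.8 with DMSO and 9.61, 9.55 and 8.23 with MPM-1, a ratio of means of 0.761 or -0.39 on the log2 scale, whereas the counts gave -0.78. Dividing a count by its FPKM and scaling by the library total gives the transcript length that the deposited values imply. The total used was the summed counts of the table, which need not be the total behind the FPKM. Lengths in bases are therefore approximate, and ratios between groups are the firmer measure. For AREG they were 1276 to 1287 bases, above its longest annotated transcript of 1240 bases. For ERBB3 this length was 5266, 5301 and 5556 bases in the DMSO libraries and 3411, 3718 and 4047 bases in the MPM-1 libraries. The groups did not overlap, and the ratio of the means was 0.693. For the other 8 genes the ratio lay between 0.978 and 1.01, and over all genes the 5th and 95th percentiles were 0.896 and 1.09. A shift at least as large, in either direction and without overlap, was found in 56 of 12887 genes, or 0.435%. ERBB3 has 23 annotated transcripts of 237 to 5919 bases, and the noncoding gene AC034102.2 overlaps it on the same strand. Which transcripts make up the difference was not tested, and limma on log2(FPKM + pseudocount) still called the fall of ERBB3 at the pseudocounts tried.

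**Figure D4:**
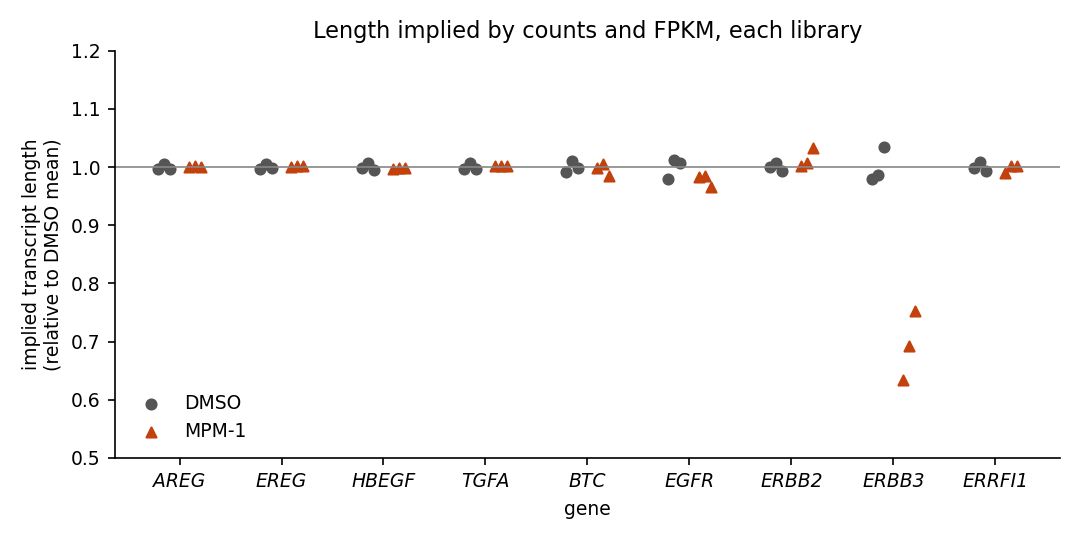
Transcript length implied by counts and FPKM in each library, divided by the mean of the DMSO libraries, for the 9 genes, with DMSO and MPM-1 libraries as separate points and an axis that does not start at 0. The 3 MPM-1 points of ERBB3 lie apart below the rest, where the ratio of means was 0.693, and the other 8 genes stay near 1.

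Other genes of the pathway were counted in fixed lists. Among the other ligands and receptors, 2 of 7 had a row, EGF and NRG4, and both fell, as did 28.8% of all genes. EGF, the founding ligand, went from 6.49, 8.78 and 9.26 CPM to 4.60, 4.29 and 5.06 CPM, with a log2 fold change of -0.81 (adjusted p = 0.00578, edgeR). NRG4, a neuregulin that binds ERBB4, went from 1.37 ± 0.532 to 0.423 ± 0.121 CPM, with a log2 fold change of -1.67 (adjusted p = 0.00776, edgeR). Its counts were low, at 65, 42 and 46 with DMSO and 17, 10 and 13 with MPM-1, and a mean of at least 50 counts leaves it out. EPGN, ERBB4, NRG1, NRG2 and NRG3 had no row. Of the known ERBB ligands in the table the 5 of the set rose, while EGF and NRG4 fell. This split follows a set chosen with earlier results of these data known.

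Genes for ligand processing, which carry, cut or restrain the precursors, went both ways. Of the 18 with a row, 7 rose, 8 fell and 3 were not called, with a median log2 fold change of 0.02, and with library size alone 5 rose and 9 fell. The share called was 83.3%, beside 56.5% of all genes. RHBDF1, a rhomboid-like carrier of ADAM17, rose by 0.71, ADAM9 by 0.57 and CNIH1, a cornichon cargo receptor, by 0.55. RHBDL2, a rhomboid protease, changed by -1.05, FRMD8, which stabilises the ADAM17 complex, by -1.02 and the tetraspanin CD82 by -0.88. The main sheddases themselves, chosen after their values were seen, changed little, with ADAM17 at 0.35 (adjusted p = 0.0197) and ADAM10 at -0.33 (adjusted p = 0.0217) by edgeR.

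A list of 28 regulators of receptor activity and turnover held inhibitors, phosphatases, ubiquitin ligases, deubiquitinases, chaperones and adaptors, so it does not stand for inhibition alone. Of these 28 genes 14 rose, 2 fell and 12 were not called, and the median was 0.29. The share called, 57.1%, was close to the 56.5% of all genes. The genes that rose included the chaperones CDC37 (0.64) and HSP90AB1 (0.22), which stabilise ERBB2, and the deubiquitinase STAMBP (0.59), which opposes EGFR degradation. HSP90AB1 was near the threshold (adjusted p = 0.0337, edgeR), and its FPKM overlapped between treatments. The ubiquitin ligases CBL (0.54) and CBLB (0.59) rose too, at means of 3.62 and 1.15 FPKM with DMSO. Their relative CBLC, at 33.1 FPKM with DMSO and 31.1 with MPM-1, was not called (0.06), and neither was the deubiquitinase USP8 (0.08). All of these genes were chosen after their values were seen. The adaptor GRB10, which binds receptor kinases and dampens them, went from 55.1 ± 6.44 to 190 ± 19.8 CPM, a rise of 1.79 on the log2 scale. The phosphatases DUSP3 and PTPN12 rose by 1.07 and 1.05. SOCS5, which promotes EGFR degradation, was at -0.67, and LRIG3, a relative of the LRIG1 inhibitor, at -0.64 from 4.36 ± 0.545 to 2.80 ± 0.572 CPM (adjusted p = 0.0412, edgeR). The call of LRIG3 was lost without DMSO replicate 2 (-0.59), DMSO replicate 3 (-0.59), MPM-1 replicate 1 (-0.53) or MPM-1 replicate 2 (-0.54), and with the replicate number as a block (adjusted p = 0.0526, edgeR), which leaves SOCS5 as the 1 falling gene. Scaling by library size alone left 8 rising genes in this list, while limma on log2(FPKM + 0.1) or leaving out DMSO replicate 2 left 9.

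The 36 genes of receptor trafficking, which carry receptors from the surface through endosomes, comprised 20 that rose, 2 that fell and 14 not called, with a median of 0.34. Of this list 61.1% was called, beside 56.5% of all genes. SH3KBP1, the CBL-binding protein CIN85, went from 36.9 ± 1.95 to 119 ± 2.08 CPM, with a log2 fold change of 1.69 (adjusted p = 5.01e-07, edgeR). The clathrin adaptor subunit AP2B1 rose by 1.09 and EPS15L1, an endocytic scaffold, by 1.01. The epsins EPN3 and EPN2 fell, by 2.75 and 0.42 on the log2 scale.

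Among 29 adaptors, members and regulators of the ERK cascade 15 rose, 7 fell and 7 were not called, with a median of 0.24. The called genes made up 75.9%, beside 56.5% of all genes. The docking protein GAB2 rose by 1.89, the adaptor SHC2 by 1.61 and SOS2, an exchange factor for RAS, by 1.10. The RAF inhibitor PEBP1 fell by 0.97, from 408 ± 5.30 to 208 ± 20.2 CPM, and the adaptors GAB1 and CRKL stood at -0.64 and -0.43. The call of GAB1 was lost without DMSO replicate 2 (-0.55), DMSO replicate 3 (-0.60), MPM-1 replicate 1 (-0.52) or MPM-1 replicate 3 (-0.55). With scaling by library size alone 10 rose and 8 fell, and the number that fell was 3 without DMSO replicate 2 or MPM-1 replicate 2, 4 without DMSO replicate 3 or with the replicate block, and 2 without MPM-1 replicate 3.

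ERK feedback and target genes, which ERK signaling commonly switches on, did not move as a block. Of the 23 with a row, 7 rose, 3 fell and 13 were not called, and their median of 0.01 lay close to that of all genes. The share called was 43.5%, under the 56.5% of all genes. PLAUR, the urokinase receptor, rose by 2.26, the ERK phosphatase DUSP5 by 1.41 and IER3 by 1.36. DUSP6, another ERK phosphatase, went from 148, 184 and 175 CPM to 21.4, 64.4 and 49.1 CPM, with a log2 fold change of -1.91 (SE 0.31), and the transcription factor MYC went from 85.3 ± 15.4 to 27.4 ± 9.69 CPM at -1.64. SPRED2, an inhibitor of the cascade, was at -0.42. With library size alone 6 rose and 6 fell, and with limma on log2(FPKM + 0.1) 5 rose and 8 fell.

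MPM-1 replicate 1 was the lowest of the 3 treated libraries for 17 of these 23 genes (73.9%), beside 36.2% of all genes and 5 of the 9 genes of the family. For the genes that follow, chosen after their values were seen, its level was under those of the other two MPM-1 libraries by a wide margin. EGR1, an immediate early transcription factor, stood at 55.7 CPM there and at 164 and 117 CPM in the others, and SPRY2, a feedback inhibitor, at 17.5 beside 47.8 and 41.7 CPM. Without this library 11 genes of the list rose in place of 7 and 3 fell. AREG then had its highest log2 fold change of the leave-one-out fits, 2.31, and all 9 genes of the family kept their call. The part of this library in the spread of AREG and EREG was not tested beyond leaving it out.

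In the PI3K-Akt arm, 2 of 16 genes rose, 4 fell and 10 were not called, with a median of -0.25. At 37.5%, the share called was under the 56.5% of all genes. The lipid phosphatase INPP4B rose by 2.24, from 0.339 ± 0.11 to 1.63 ± 0.31 CPM, and the catalytic subunit PIK3CA by 0.41. PIK3R3, a regulatory subunit, went from 6.72 ± 0.813 to 0.908 ± 0.361 CPM at -2.88, the lipid phosphatase INPP5D changed by -1.09 and the kinase AKT1 by -0.54. The call of PIK3CA was lost with library size alone and with limma on FPKM. With library size alone 1 gene of the list rose and 9 fell, and limma on log2(FPKM + 0.1) gave 0 and 6.

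Across these 7 lists 65 genes rose and 28 fell, so 69.9% of the called genes were higher, beside 49.0% of called genes in the whole table. Scaling by library size alone gave 48 and 39, or 55.2%, beside 34.7% in the whole table, and limma on log2(FPKM + 0.1) gave 45 and 33, or 57.7%, beside 36.7%. These counts are a description.

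**Figure D5:**
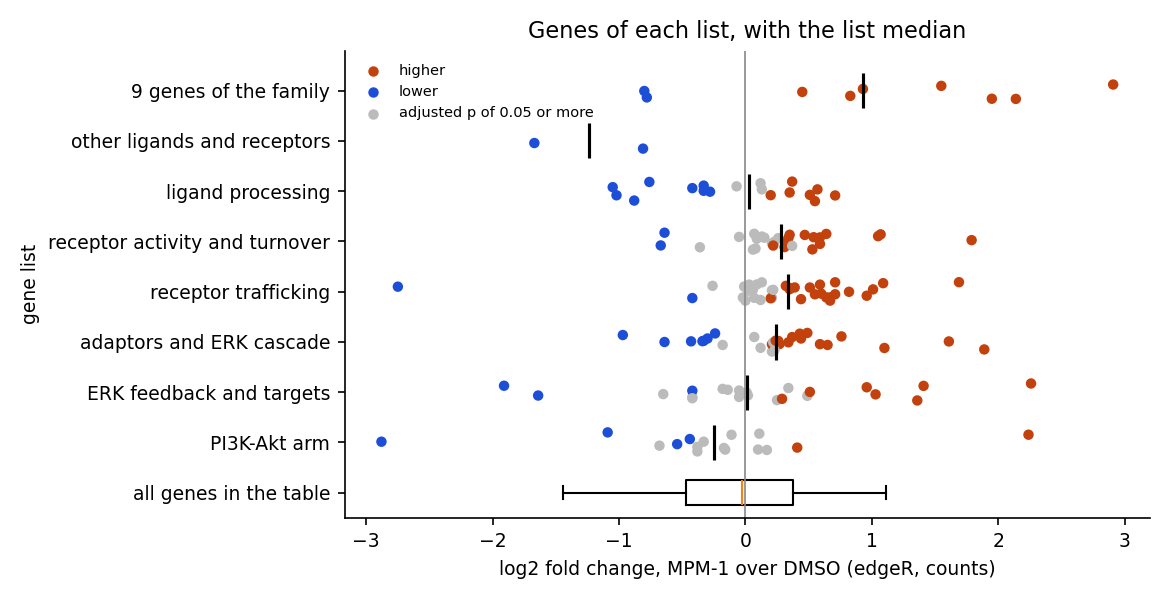
Log2 fold changes, MPM-1 over DMSO, of the genes of each list, coloured by whether they were higher, lower or at an adjusted p of 0.05 or more, with a vertical mark at each list median. The bottom row shows all 12982 genes as a box between the quartiles with whiskers at the 5th and 95th percentiles. The family has the highest median, 0.93, and the PI3K-Akt arm and the other ligands and receptors have medians under that of all genes. The family and the lists were chosen with earlier results of these data known.

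The genes most like HBEGF, the gene with the largest rise, over the 6 libraries in log2 CPM were CDC16 (Pearson r = 0.9996), PAIP1 (0.9994) and PLIN2 (0.9992), and 1478 genes had r over 0.95. Those most like ERBB2, the gene with the largest fall, were PIMREG (0.9992), EEF2K (0.9989) and KCNAB2 (0.9981), with 1312 genes over 0.95. The 6 libraries form 2 treatment groups that set these values, so many genes that differ between treatments reach them. The changes of these genes were of other sizes than those of HBEGF and ERBB2, with PLIN2 at 2.36 and PAIP1 at 0.58 on the log2 scale beside 2.91 for HBEGF.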

How the data were processed

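SW480 cells were sequenced after 24 h with DMSO or MPM-1, 3 libraries each, and grouped by the treatment in the labels. RNA was extracted with TRIzol and libraries were made with a kit for mRNA. The authors deposited 1 table with whole-number counts and FPKM values per gene and library. The log2 fold changes and FDR values that the authors deposited compare MPM-1 with DMSO per gene and were not used. The submitters' processing notes name HISAT2, DESeq2 and the build mm10. The 12127 Ensembl identifiers of the table are all in the human GENCODE release 29 (GRCh38), from which coordinates were taken. The lowest total count of a gene in the table was 115, so rarer transcripts were not analysed here.

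The deposited counts were tested in R 4.3.3 with edgeR 4.0.16 (TMM scaling, filterByExpr, which removed 0 genes, glmQLFit and glmQLFTest, common dispersion 0.0231) on all 6 libraries without covariates, and p-values were adjusted by Benjamini-Hochberg over 12982 genes. Log2 CPM used a prior count of 2. The SE given with a log2 fold change is its size divided by the square root of the quasi-likelihood F statistic. Alternatives were no filter, a mean of at least 50 counts, DESeq2 size factors, library size alone, DESeq2 1.42.0, a block for the replicate number, leaving out each library in turn, a stricter threshold, and limma 3.58.1 on log2(FPKM + 0.1), with pseudocounts of 1 and 0.01 and with or without a mean of at least 1 FPKM (11497 genes). On that scale the change of low genes is understated. The fit was tested on simulated counts with a small share of genes changed, evenly up and down, at the common dispersion. Far more genes were called in these libraries, so the simulation does not probe the scaling in that setting.

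The genes of the family and the lists were chosen with earlier results of these data known. Named are every gene of the family, up to 3 of the largest rises and falls among called genes of each other list, and the 3 genes most like the family's largest rise and fall. EPCAM, KRT8, PDGFRB, ADAM17, ADAM10, EGR1, SPRY2, CDC37, HSP90AB1, STAMBP, CBL, CBLB, CBLC and USP8 fall outside this rule and were named after their values were seen. Promoters came from RefSeq (GRCh38.p14), and matches were exact on both strands. Protein sequences were not used here.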

Additional observations from a re-analysis of the deposited data

How the results depend on the processing

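All 9 genes of the family kept their direction and their call under every alternative other than the stricter threshold, 16 for each gene and 13 for BTC, which the FPKM filter leaves out. The log2 fold change ranged from 1.96 to 2.31 for AREG, 2.22 to 3.03 for HBEGF, 1.63 to 2.24 for BTC, 0.63 to 1.00 for EREG, 0.70 to 1.03 for TGFA, 0.30 to 0.48 for EGFR, 1.39 to 1.62 for ERRFI1, -0.97 to -0.77 for ERBB2 and -0.93 to -0.36 for ERBB3. The stricter threshold left 4 higher and 0 lower genes of the family, and 14 higher and 8 lower genes of the lists in place of 65 and 28. In the order of levels, CPM per kilobase of exons kept 5 of 9 places with DMSO and 5 of 9 with MPM-1. Over the whole table, library size alone gave 2589 higher and 4871 lower genes and limma on log2(FPKM + 0.1) gave 2345 and 4042, with medians of -0.176 and -0.145. Libraries with the same replicate number did not deviate together in every pair (correlations of 0.0214, 0.114 and -0.0737). Pairs with unlike numbers reached -0.13 and 0.115. With 3 libraries per group such values cannot tell whether the numbers pair the libraries, and the labels do not say. With the replicate number as a block, 7 genes of the family were higher and 2 lower, 63 and 25 genes of the lists, and 3475 and 3642 of all genes. Among the genes named by the rule, LRIG3 was the one whose call changed with the block, and genes named outside the rule were not followed singly across alternatives. Causes of these shifts were not tested. A comparison of the EGF-like motif between ligands was not run.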
